A study of Mus musculus with 108 samples.

Results

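The 33 genes described here encode the enzymes and transporters of glycolysis together with the sensors, the regulator and the targets of the response to low oxygen. They were taken by symbol, with no measured value in the rule, and all 33 were found among the 49585 genes of the count table. Glucose transport is represented by Slc2a1 and Slc2a3. The preparatory phase of glycolysis holds Hk1, Hk2, Gpi1, Pfkl, Pfkp, Pfkfb3, Pfkfb4, Aldoa and Tpi1. The pay-off phase holds Gapdh, Pgk1, Pgam1, Eno1 and Pkm. The fate of pyruvate is set by Ldha, Slc16a3 and Pdk1. Oxygen sensing is represented by Hif1a, Egln1 and Egln3, and the removal of mitochondria by Bnip3 and Bnip3l. Protein folding and collagen hydroxylation are represented by Ero1l, P4ha1 and P4ha2. The remaining 6 genes, Ndrg1, Ankrd37, Hilpda, Higd1a, Ak4 and Adm, are other targets of the hypoxia response.

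Glycolysis splits glucose into pyruvate and yields ATP without oxygen. Lactate dehydrogenase then turns pyruvate into lactate, and monocarboxylate transporters carry the lactate out of the cell. In oxygenated cells the prolyl hydroxylases encoded by Egln1 and Egln3 mark the transcription factor subunit HIF-1α, the product of Hif1a, for degradation. When oxygen falls the subunit persists and binds short DNA motifs beside many glycolytic genes and beside its own inhibitor Egln3. In macrophages and granulocytes inflammatory signals also raise this programme in the presence of oxygen. Neutrophils, the main granulocytes, are known to rely on glycolysis and to hold few mitochondria.

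The libraries come from brain-resident and infiltrating myeloid cells that were purified by FACS, from Balb/C mice carrying the athymic nude mutation Foxn1nu, which lack mature T cells, so every group shares that deficiency. Mice carried brain metastases formed from lung tumour cells, or no tumour. RNA was sequenced in 108 libraries of 28 groups, and the question was how brain metastasis, its growth and radiotherapy change these cells. No source used here gives ages, the tumour line, the sorting gates or whether libraries held pooled animals, so the p-values below measure only the spread between these libraries. The groups without a tumour were microglia (4 libraries) and blood monocytes (4 libraries). A pair of further tumour-free microglia groups of 3 libraries each carry 5x2 and day 3 or day 5 in their titles, but their radiotherapy field reads none, so they are called titled groups here and are not called irradiated. From unirradiated tumours came microglia and monocyte-derived macrophages (labelled BMDM, 5 libraries each at the small and at the large tumour stage), inflammatory monocytes and granulocytes (4 libraries each at the small and 5 at the large stage). From irradiated tumours, with no stage given, each of the 4 cell populations was taken at day 3 and day 5 after 5 fractions of 2 Gy (4 libraries each), at day 10 after the same dose (3 libraries) and at day 3 after 1 fraction of 10 Gy (3 libraries).

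Levels are CPM (counts scaled to a common library size), scaled by the trimmed mean of M values over all 108 libraries, and are compared between genes only per kilobase of exon. Library totals ran from 985423 to 18642747 counts, with a median of 11362594. Microglia markers summed to 5831 to 15883 CPM in the libraries labelled microglia. Granulocyte markers summed to 15718 to 44018 CPM in granulocytes and monocyte markers to 4588 to 11398 CPM in tumour monocytes. The libraries labelled BMDM held microglia markers at 1093 to 6847 CPM. Sums of macrophage markers in BMDM and of monocyte markers in blood monocytes are not given here. By total, by number of genes detected or by abundant genes at 0, 12 libraries were doubtful: tumour-free microglia 2 and 3, blood monocytes 1, 2 and 3, small-stage microglia 1 and 4, small-stage granulocytes 1, large-stage macrophages 2, and 1 library each of microglia, monocytes and granulocytes at day 3 after 5x2 Gy. Main results that rest on them are given with and without them. Ribosomal protein genes, not part of this rule, held 0.853% of counts in small-stage microglia library 3 and 0.225% to 0.378% in the others of its group. They held 0.837%, 0.938% and 1.07% in large-stage library 5 of microglia, macrophages and monocytes, the highest of each group. Library 4 of these populations was likewise highest at day 3 and day 5 after 5x2 Gy. The part of this in the members' levels was not tested. Several members share sequence with other genes: of all stretches of 50 bases in the exons, 53.9% for Pgk1, 47.2% for Bnip3, 36.2% for Pgam1, 26% for Eno1, 25.8% for Pkm and 25.1% for Gapdh also occur elsewhere, and the copies Eno1b and Pgam1-ps2 carried more counts on average (3222 and 1926) than Eno1 and Pgam1 (1906 and 980). Levels of these genes are therefore uncertain.

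The promoters are shown because members that move together may share letters near their start, and because the response acts through a short core motif, read here as ACGTG or GCGTG on either strand (its complements are CACGT and CACGC, and the palindrome CACGTG counts once on each strand). In the 250 bases before the start of transcription, from RefSeq on build GRCm38.p6, 28 of the 30 members with an entry held at least 1 core motif (93.3%), against 41.5% of 27025 genes and 47.1% of 17492 protein-coding genes. At least 2 motifs stood in 22 members (73.3%), against 18.7% of all genes. Slc2a3, Bnip3l and Ndrg1 had no entry. For a gene with several promoters the one with the most motifs was counted, among members and all genes alike. Hk1, Aldoa, Pkm and Hilpda held 0 in the first promoter of their entry. Since the list was picked for genes of this response, its share describes the list and is no result about these libraries. A match describes the letters and is not a measured binding site. In the 6 windows below, from a glucose transporter, a lactate exporter, a mitophagy receptor, an endoplasmic oxidase, an oxygen sensor and a hexokinase, capitals mark the motif and the last base is the one before the start.
Slc2a1, chr4:119108495-119108744, plus strand: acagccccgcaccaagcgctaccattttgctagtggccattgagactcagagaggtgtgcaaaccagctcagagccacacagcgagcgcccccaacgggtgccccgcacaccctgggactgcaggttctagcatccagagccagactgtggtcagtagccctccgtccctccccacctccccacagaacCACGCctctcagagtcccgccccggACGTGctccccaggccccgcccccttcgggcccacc
Slc16a3, chr11:120948817-120949066, plus strand: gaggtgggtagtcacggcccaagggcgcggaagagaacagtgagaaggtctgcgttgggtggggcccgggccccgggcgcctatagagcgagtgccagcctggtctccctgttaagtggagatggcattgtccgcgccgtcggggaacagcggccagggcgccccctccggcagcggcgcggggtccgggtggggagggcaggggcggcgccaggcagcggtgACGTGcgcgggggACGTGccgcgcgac
Bnip3, chr7:138909507-138909756, minus strand: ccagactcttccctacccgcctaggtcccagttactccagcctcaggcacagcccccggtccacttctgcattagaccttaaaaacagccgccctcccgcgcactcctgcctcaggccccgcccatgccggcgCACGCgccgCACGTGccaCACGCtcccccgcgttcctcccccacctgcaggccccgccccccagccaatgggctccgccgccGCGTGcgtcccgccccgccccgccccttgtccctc
Ero1l, chr14:45318573-45318822, minus strand: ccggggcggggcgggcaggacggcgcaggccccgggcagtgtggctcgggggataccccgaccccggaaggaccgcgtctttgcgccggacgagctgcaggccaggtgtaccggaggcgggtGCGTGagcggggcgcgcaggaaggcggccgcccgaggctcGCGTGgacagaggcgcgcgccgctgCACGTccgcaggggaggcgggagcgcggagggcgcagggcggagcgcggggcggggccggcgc
Egln3, chr12:54203875-54204124, minus strand: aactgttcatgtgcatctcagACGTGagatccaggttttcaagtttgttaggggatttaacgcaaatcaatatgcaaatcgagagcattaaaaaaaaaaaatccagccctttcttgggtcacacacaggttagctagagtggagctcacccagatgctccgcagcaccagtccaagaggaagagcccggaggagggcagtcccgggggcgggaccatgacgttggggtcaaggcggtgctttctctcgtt
Hk2, chr6:82774455-82774704, minus strand: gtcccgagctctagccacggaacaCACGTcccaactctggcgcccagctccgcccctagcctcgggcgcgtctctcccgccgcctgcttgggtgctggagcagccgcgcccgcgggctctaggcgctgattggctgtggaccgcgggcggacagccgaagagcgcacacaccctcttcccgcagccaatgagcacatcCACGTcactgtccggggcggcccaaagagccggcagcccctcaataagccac
Bnip3 held 5 motifs, Ero1l 3, and Slc2a1, Slc16a3 and Hk2 2 each, while the only match of Egln3 lay 229 bases before its start.

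Taken as a mean of log2 CPM over the 33 genes, the programme was lowest in the tumour-free groups and highest in granulocytes. The mean was 4.31 ± 0.40 (SD, n = 4) in tumour-free microglia and 4.65 ± 0.31 (n = 4) in blood monocytes. It stood at 5.46 ± 0.48 (n = 5) in small-stage and 5.68 ± 0.33 (n = 5) in large-stage microglia, and at 5.56 ± 0.58 and 5.62 ± 0.31 (n = 5 each) in macrophages of the same stages. Small-stage and large-stage monocytes reached 6.5 ± 0.44 (n = 4) and 6.55 ± 0.46 (n = 5). Large-stage granulocytes reached 7.82 ± 0.31 (n = 5), and small-stage granulocytes 6.88 ± 1.24 (n = 4) with a spread from 5.23 to 7.93. In the titled tumour-free groups libraries ran from 4.624 to 5.199 at day 3 and from 4.488 to 5.164 at day 5. Their upper libraries lay above the lowest small-stage microglia library (4.924), so these ranges overlapped. Microglia and macrophages of unirradiated tumours stood within 1 SD of each other, the ranges of tumour-free microglia and blood monocytes overlapped, and the monocyte means lay above those of microglia and macrophages. Per kilobase the leading members were much the same in each population: Aldoa, Ldha, Tpi1 and Pkm stood at 178, 162, 111 and 107 CPM per kb in small-stage microglia, and Aldoa and Pkm at 704 and 591 in large-stage granulocytes, where Hilpda, a lipid droplet protein, led with 725.

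**Figure D1:**
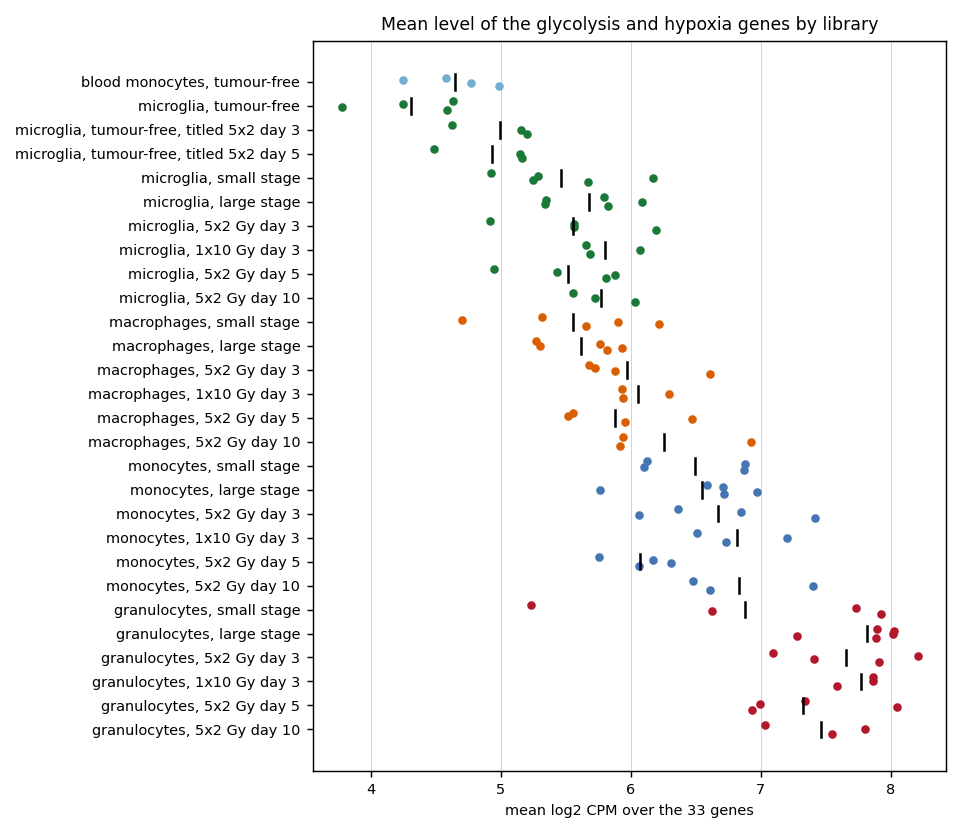
Mean log2 CPM over the 33 genes, 1 point a library and 1 row a group, with a bar at the group mean; colours mark the cell population. Tumour-free microglia sit between 3.78 and 4.64, and the titled tumour-free groups between 4.488 and 5.199. Small-stage microglia lie between 4.92 and 6.17, overlapping the titled groups. Monocytes of unirradiated tumours sit between 5.76 and 6.97, and large-stage granulocytes between 7.28 and 8.03.

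Microglia from small-stage tumours were compared with tumour-free microglia. Genes of glucose uptake, of lower glycolysis and of lactate production and export rose, and so did Hif1a and Egln3. Of 33 members, 17 rose and 0 fell in edgeR's quasi-likelihood test (adjusted p under 0.05 over all genes), where 15.4% of all genes were called, 7.55% higher and 7.82% lower. The median log2 fold change was 1.2 over the members and -0.0252 over all genes. By role, both glucose transporters rose, as did 4 of 9 genes of the preparatory phase, 3 of 5 of the pay-off phase, 2 of 3 of the fate of pyruvate and 2 of 3 of oxygen sensing.

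Slc2a1, the main glucose transporter of many cells, stood at 78.8, 35.2, 36.7 and 106 CPM in the tumour-free libraries and at 137, 148, 225, 114 and 167 CPM in the small-stage ones. The groups did not overlap, and the log2 fold change was 1.31 ± 0.25 (SE, adjusted p = 0.00066). Slc2a3, a transporter of high affinity, was lower, at 7.93 ± 3.75 and 19.1 ± 8.62 CPM (SD, n = 4 and n = 5), a rise of 1.24. Hk2, the inducible hexokinase that traps glucose in the cell, was already abundant in tumour-free microglia, with 117, 137, 99.7 and 178 CPM against 120.3, 219.8, 207, 130.2 and 169.7 CPM. Its values overlapped, and the difference of 0.30 ± 0.17 did not pass (adjusted p = 0.24). Pfkfb3, which makes the activator of phosphofructokinase, had the lowest adjusted p of the members. It was 116 ± 39.5 CPM without and 329.7 ± 92.9 CPM with a tumour, a log2 fold change of 1.49 ± 0.23 (adjusted p = 4.2e-05). Among the enzymes it acts on, Pfkl rose by 1.26 while Pfkp, at 12.7 ± 12.8 and 8.88 ± 5.43 CPM, did not pass.

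Pkm, the pyruvate kinase of the last step, showed the largest rise among the abundant enzymes. Its tumour-free libraries held 156, 128, 83.6 and 167 CPM and its small-stage libraries 336, 452, 654, 454 and 775 CPM, so that every tumour library exceeded every tumour-free one. The log2 fold change was 1.97 ± 0.32 (adjusted p = 9.1e-05). Ldha, which makes lactate, rose from 226, 182, 108 and 247 CPM to 323, 537, 859, 356 and 599.5 CPM, again with no overlap (1.45 ± 0.29, adjusted p = 0.00097). Slc16a3, the exporter of lactate, rose by 1.58 ± 0.32 from 23.7 ± 8.63 to 72 ± 25.5 CPM. Pdk1, a kinase that inhibits pyruvate dehydrogenase, did not pass, at 66.9 ± 43.3 against 80.1 ± 69.5 CPM (adjusted p = 0.82).

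Hif1a mRNA stood at 136, 39.3, 60.1 and 156 CPM without a tumour and at 226, 291, 307, 236 and 288 CPM at the small stage, with no overlap and a log2 fold change of 1.49 ± 0.26 (adjusted p = 0.00024). Egln3, the hydroxylase that the response itself induces, had the largest fold among the members at a low level: 0.872, 1.84, 2.86 and 0.221 CPM against 7.12, 4.77, 16.3, 8.58 and 13.7 CPM. Its log2 fold change was 2.97 ± 0.63 (adjusted p = 0.0017), and no tumour-free library reached the lowest small-stage value. Egln1, the constitutive hydroxylase, did not pass (-0.76, adjusted p = 0.23). Bnip3, the mitophagy receptor, ran from 2.29 to 30.1 CPM without and from 20.9 to 55.7 CPM with a tumour, overlapping ranges, and its call (adjusted p = 0.039) was lost when any of 4 single libraries was left out, tumour-free 2 or 3 or small-stage 3 or 5 (adjusted p 0.071 to 0.12). Adm, a vasodilator peptide, was near the detection limit at 0.374, 1.26, 0 and 0.842 CPM against 3.0, 3.74, 7.87, 4.6 and 1.32 CPM. The groups did not overlap, and the call (adjusted p = 0.03) was lost without tumour-free library 1 or 3 or small-stage library 3 (adjusted p 0.063 to 0.073), while the fold of 2.49 became 3.08 without tumour-free library 2. At the large stage its call was lost without any of 8 of the 9 libraries in turn. The calls of Pgk1, Pgam1 and P4ha2 also ended when single libraries were left out, for Pgk1 without tumour-free 3 or small-stage 3 (adjusted p 0.07 and 0.1) for Pgam1 without tumour-free 2 or 3 or small-stage 3 or 5 (0.056 to 0.095) and for P4ha2 without any of 6 (0.058 to 0.2).

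At the large stage 20 members rose and 0 fell, against 31.9% of all genes called, 11.7% higher and 20.2% lower. The median log2 fold change was 1.34 over the members and -0.260 over all genes. The calls of the small and the large stage are not independent, since 1 set of 4 tumour-free libraries serves both. Gpi1, Pfkfb4, Bnip3l and Ero1l passed at the large stage with smaller folds of 1.02, 0.69, 0.53 and 0.96, and each of these calls was lost without at least 4 single libraries in turn, while the fold of Ero1l became 1.86 without tumour-free library 3. P4ha2, which passed at the small stage, did not at the large one (2.03, adjusted p = 0.07). Pkm stood at 643, 392, 1172, 640.1 and 619 CPM, 2.23 ± 0.33 above tumour-free cells on the log2 scale (adjusted p = 1.5e-05). Egln3 reached 16, 12.5, 33.9, 8.25 and 11.4 CPM (3.54 ± 0.64, adjusted p = 0.00023) and Hif1a 389, 292, 444, 289.6 and 253 CPM (1.67 ± 0.27, adjusted p = 4.8e-05). All large-stage libraries exceeded all tumour-free ones for these 3 genes.

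Other genes listed as glycolytic but outside the 33 did not move one way: 3 of 28 rose and 3 fell at the small stage, and 6 rose and 6 fell at the large one. The background over all genes was 7.55% higher and 7.82% lower at the small stage, and 11.7% and 20.2% at the large one. Slc2a6, a hexose transporter of lysosomes, rose from 1.9 ± 0.383 to 55.1 ± 31.1 CPM at the small stage, by 4.89 ± 0.58 on the log2 scale (adjusted p = 1e-06). Aldoc, the aldolase that marks astrocytes, fell from 233 ± 158 to 13.4 ± 13.8 CPM, a log2 difference of -4.22 ± 0.82 (adjusted p = 0.00065). Of 32 further hypoxia genes 8 rose and 0 fell at the small stage, led by Plin2, Plaur and Hmox1, the last of them at 747 ± 454 CPM against 72.3 ± 28.6. At the large stage 10 rose and 2 fell. Genes of the citrate cycle rose in 2 of 20 cases at the small and 11 of 20 at the large stage, and those of oxidative phosphorylation in 2 and 7 of 24, with none falling. The pentose phosphate pathway had 2 of 8 higher and 1 lower, then 5 higher and 1 lower.

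Markers of other cells moved with these results. Summed astrocyte markers ran from 1108 to 1581 CPM in tumour-free microglia and from 131 to 364 and 166 to 375 CPM at the small and large stage, with 8 and 7 of 10 markers lower. Of the 10, Agt alone reached 0, in the large-stage group. Oligodendrocyte markers fell from 337 to 449 CPM down to 164 to 234 and 186 to 289 CPM (3 and 5 of 10 lower), and 2 and 7 of 10 neuron markers fell, from 22.3 to 219 CPM in sum to 2.77 to 31.1 and 3.79 to 32.9 CPM. Mitosis genes summed to 23.9 to 86.5 CPM without a tumour and to 121 to 444 and 42.7 to 325 CPM with one (9 and 8 of 12 higher). The part of these in the members' change was not tested. In bulk samples, fewer cells of a type and less RNA per cell cannot be told apart.

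The scaling and the reference mattered for part of the list. With size factors of relative log expression, 15 and 17 members were called (15 higher at the large stage and 2, Gapdh and Egln1, lower), the all-gene median was -0.212 and -0.512, and the share of all calls that were higher went from 49.1% to 33.9% at the small and from 36.7% to 23.4% at the large stage. Of all genes 17.9% and 34.5% were called with this scaling. Without the doubtful libraries 8 and 13 members were called, against 7.87% and 17.1% of all genes; 7 of the 17 small-stage calls were among the 8, and all 13 were among the large-stage calls. Pfkfb3, Tpi1, Pkm, Ldha, Slc16a3, Hif1a and Egln3 were called without them at both stages, with log2 fold changes of 1.94 and 2.08 for Pkm and 1.00 and 1.17 for Hif1a. Egln3 then stood at 4.58 and 5.07, and Ero1l at 1.67 and 1.61, while Bnip3 at the large stage was 0.84 (adjusted p = 0.087). Slc2a1 stood at 0.95 (adjusted p = 0.055) at the small stage and held 0.91 (adjusted p = 0.029) at the large one.

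The titled tumour-free groups were compared with tumour-free microglia. At day 3, 1 member, Pkm, was called (134 ± 37.1 against 356 ± 103 CPM, log2 fold change 1.29 ± 0.34, adjusted p = 0.047), where 1.91% of all genes were called; at day 5 there were 0, where 1.35% were called. At unadjusted p under 0.05, 12 members stood out at day 5 with a background of 23.5%, and DESeq2's Wald test called 2 and 3 members, with backgrounds of 12% and 10.4%. Pkm lay at 247, 370.2 and 452 CPM at day 3 and 158, 329 and 491 CPM at day 5. The call of Pkm was lost without tumour-free library 3 or titled library 2 or 3 (adjusted p 0.17 to 0.23). Egln3 did not share this: it stood at 0.429, 0.286 and 0.559 CPM and 1.16, 0.409 and 0.219 CPM. Astrocyte markers summed to 542 to 3593 CPM and 1555 to 3870 CPM in these groups, and Pfkp stood at 5.7, 88.6 and 92.5 CPM and 9.05, 59.4 and 108 CPM; their part was not tested.

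When the titled groups served as the reference, a comparison added after seeing the data, 12 members rose and 3 (Hk1, Pfkp and Higd1a) fell at the small stage, and 10 of the 17 calls were shared, with 26.7% of all genes called. At this stage Slc2a1, Pfkfb3, Pkm, Slc16a3, Hif1a and Egln3 stayed called, whereas Aldoa, Tpi1, Pgk1, Pgam1 and Ldha lost their calls, with log2 fold changes of 0.12, 0.52, 0.26, 0.32 and 0.47. At the large stage 14 rose and 3 fell, with 21.8% of all genes called, and Tpi1 and Ldha kept their calls (0.73 and 0.74).

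**Figure D2:**
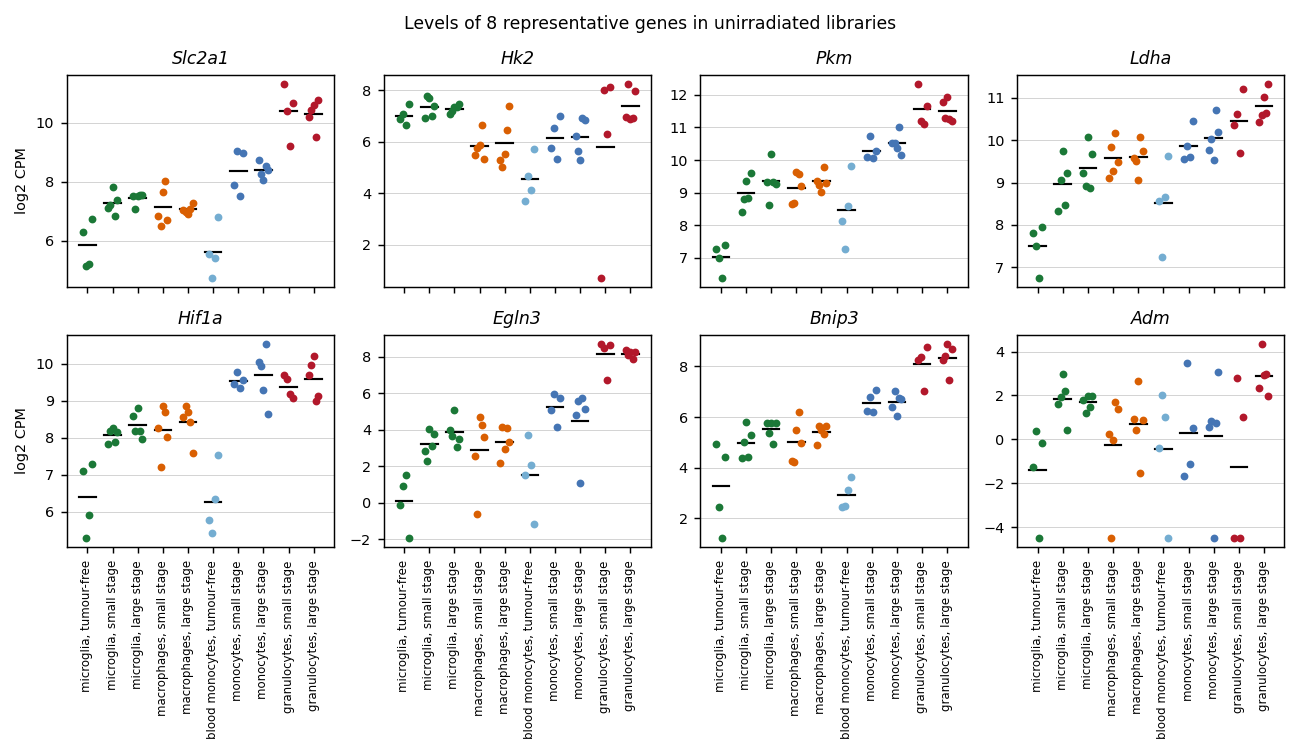
Log2 CPM of 8 representative genes in the unirradiated groups, 1 point a library, with a bar at the group mean. Slc2a1, Pkm, Ldha, Hif1a, Egln3 and Bnip3 rose from tumour-free to tumour microglia. These genes also stood higher on average in tumour than in blood monocytes, where Egln3 did not pass edgeR's test. Hk2 is high in every microglia group, and granulocytes top Slc2a1, Pkm and Egln3.

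Monocytes from tumours were compared with blood monocytes of tumour-free mice. Of 33 members 19 rose and 0 fell, against 26.3% of all genes called, 10.6% higher and 15.7% lower. The median log2 fold change was 1.44 over the members and -0.163 over all genes. Members of every role rose: 1 of 2 glucose transporters, 5 of 9 genes of the preparatory phase, 4 of 5 of the pay-off phase and all 3 of the fate of pyruvate. The largest rises were in genes of the hypoxia response, with Bnip3, Hilpda, Ero1l and Hif1a at the top.

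Bnip3 stood at 5.46, 5.62, 8.64 and 12.2 CPM in blood monocytes, at 74.7, 110.4, 73.3 and 133 CPM in small-stage and at 84.8, 131, 66.6, 107 and 105 CPM in large-stage tumour monocytes. The groups were far apart, with a log2 fold change of 3.27 ± 0.29 (adjusted p = 1.5e-05). Bnip3l, its close relative, did not pass, at 149 ± 57.8 in blood and 147 ± 24.5 CPM in tumours (n = 4 and n = 9). Hif1a rose from 55, 43.1, 81.9 and 186 CPM to 704, 871, 656 and 757 CPM at the small and 1052, 988, 629, 1478 and 398 CPM at the large stage, with no overlap (2.91 ± 0.40, adjusted p = 0.00026). Ero1l, which oxidises disulphide bonds in the endoplasmic reticulum, ran from 13 to 39.7 CPM in blood and from 126 to 359 CPM in tumours (2.94 ± 0.35). Hilpda, an inhibitor of lipolysis, rose by 3.26 ± 0.58 and Ankrd37 by 2.21 ± 0.34. Egln3 did not pass: 2.85, 12.8, 4.21 and 0.403 CPM in blood overlapped the tumour range of 2.07 to 62.1 CPM (adjusted p = 0.063). Adm showed no difference beyond its spread (1.68 ± 1.76 and 2.93 ± 3.99 CPM).

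Among the enzymes and transporters, Slc2a1 rose from 46.3, 26.7, 42.8 and 113 CPM to 237, 523, 182 and 508 CPM and 423, 305, 269, 375 and 335 CPM at the small and large stage (2.35 ± 0.36, adjusted p = 0.00063). Slc2a3 had the opposite sign but did not pass (-1.46, adjusted p = 0.14). Pfkfb3 rose by 2.75 ± 0.36, Pfkl by 2.57 ± 0.36 and Slc16a3 by 2.51 ± 0.44. Hk2 stood at 13, 25.7, 17.4 and 52.5 CPM in blood and at 38.9 to 128 CPM in tumours, overlapping ranges, and its call (adjusted p = 0.044) was lost without any of 6 single libraries (blood libraries 1, 2 and 3 among them, adjusted p up to 0.13). Pkm rose from 279, 154, 389 and 899 CPM to 1087, 1698, 1067 and 1231 CPM and 1479.8, 1477, 1329, 2059 and 1132 CPM (1.44 ± 0.33, adjusted p = 0.0072), with blood library 4 nearest to the tumours. Ldha overlapped, at 378, 150.4, 404 and 788 CPM in blood and 743 to 1690.2 CPM in tumours (1.00 ± 0.33, adjusted p = 0.035); the call was lost without blood library 1, 2 or 3 or large-stage monocyte library 2 or 4 (adjusted p 0.053 to 0.12). The calls of Pgk1, Pgam1 and Eno1 were likewise lost without blood library 1, 2 or 3 in turn, and those of Pgam1 and Eno1 also without single large-stage monocyte libraries. Without blood library 4 the folds of Aldoa and Pgk1 went from 1.49 and 1.17 to 2.09 and 1.79.

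This comparison leans on the blood libraries, of which 3 of 4 were doubtful. Without all doubtful libraries 1 blood library is left, assumed to vary like the other groups, and 3 members were called against 1.27% of all genes (Pdk1 at 4.74, Bnip3 at 3.03 and P4ha1 at 1.82 on the log2 scale). Slc2a1, Hif1a, Pkm, Ldha and Pgk1 then stood at 1.66, 2.16, 0.63, 0.41 and 0.27 with no call. Without only the pair of blood libraries under 3000000 counts, chosen after seeing the data, 11 members and 4.82% of all genes were called. The share of all calls that were higher was 40.2%, and 28.1% with size factors of relative log expression, where the all-gene median was -0.406. Blood libraries also held other cells: erythroid markers summed to 1157 to 7045 CPM, NK cell markers to 184 to 3972 CPM and B cell markers to 71.8 to 294 CPM, against at most 13.6, 61.9 and 16.9 CPM in tumour monocytes. All 5 erythroid, 6 NK and 5 B cell markers tested were lower in tumours. Immediate early genes, which respond to handling, were higher in 7 of 10 cases. Their part in the result was not tested.

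Beyond the 33, Vegfa, the growth factor of blood vessels, rose from 10.7 ± 3.86 to 427 ± 190.4 CPM in tumour monocytes, by 4.88 ± 0.58 on the log2 scale (adjusted p = 9.8e-05). Of 32 further hypoxia genes 13 rose and 2 fell, and of 28 further glycolytic genes 6 rose and 3 fell. The background over all genes was 10.6% higher and 15.7% lower. The citrate cycle had 3 of 20 higher, oxidative phosphorylation 0 of 24 in either direction and the pentose phosphate pathway 1 of 8 each way. Slc16a1, a lactate carrier of wide expression, also rose (9.22 ± 3.04 to 60.8 ± 17.9 CPM).

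Macrophages and microglia of unirradiated tumours held the programme at a like mean level. Of 33 genes 3 were higher in macrophages (Pfkp, Ndrg1 and Hilpda) and 4 lower (Hk2, Pfkl, Pfkfb3 and P4ha1), against 29.9% of all genes called, 16.1% higher and 13.8% lower. The members' share was thus below that background, and their median log2 fold change was 0.0723. No gene of glucose transport, the pay-off phase, the fate of pyruvate or oxygen sensing was called.

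Pfkp, the platelet form of phosphofructokinase, stood at 5.85, 3.11, 17.5, 8.14 and 9.8 CPM in small-stage and 9.0, 4.89, 21.5, 4.69 and 4.64 CPM in large-stage microglia, against 160.3, 217, 122, 136 and 254 CPM and 238, 186, 99.2, 135 and 18.8 CPM in macrophages. Only large-stage macrophage library 5 reached into the microglia range, and the log2 fold change was 4.12 ± 0.43 (adjusted p = 4.7e-07). Ndrg1, a stress-response gene, was 0.225, 0.899, 19, 4.96 and 4.36 CPM and 8.13, 3.45, 3.61, 0.434 and 20.2 CPM in microglia and 36.7, 116, 47, 65.7 and 52.1 CPM and 95.4, 64.2, 32, 27.8 and 22.6 CPM in macrophages, with no overlap (3.11 ± 0.59, adjusted p = 0.00048). Hilpda was higher by 1.26 ± 0.34. In the other direction, Hk2 stood at 44.5, 54, 59.2, 102 and 40.5 CPM and 38.7, 32.2, 46.6, 88.6 and 169.7 CPM in macrophages, against 120.3 to 219.8 CPM in microglia. The fold was -1.31 ± 0.24 (adjusted p = 0.00028), and large-stage macrophage library 5 alone lay inside the microglia range. Pfkfb3 and P4ha1, a collagen prolyl hydroxylase, had log2 fold changes of -0.78 and -0.74. Pfkl (-0.59) lost its call when any of 14 single libraries was left out (adjusted p up to 0.1).

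The representatives Slc2a1, Pkm, Ldha, Hif1a, Egln3, Bnip3 and Adm did not pass between macrophages and microglia. Pkm was 628 ± 158 and 614 ± 240.0 CPM (n = 10 each), a log2 fold change of 0.03 ± 0.19. Hif1a was 339 ± 111 and 302 ± 67.3 CPM (0.17 ± 0.19), and Egln3 12 ± 7.76 and 13.3 ± 8.2 CPM (-0.10 ± 0.44). DESeq2 called 11 members here, where it called 34.4% of all genes. Among genes outside the 33, Eno3, the muscle enolase, was higher in macrophages (66.2 ± 40.5 against 11.1 ± 3.04 CPM), Slc2a5, the fructose transporter of microglia, lower (4.25 ± 4.58 against 72.4 ± 55.9 CPM), and 2 of 28 other glycolytic genes were higher and 6 lower. Vegfa was higher at 143 ± 90.5 against 21 ± 8.76 CPM, among 5 of 32 further hypoxia genes higher and 8 lower. Oxidative phosphorylation had 14 of 24 genes higher and 0 lower, the citrate cycle 6 of 20 higher and 2 lower. The background over all genes was 16.1% higher and 13.8% lower. Dendritic cell markers moved with these results, at 281 to 2789 CPM in macrophages and 11.7 to 58.2 CPM in microglia with 6 of 6 higher. Over all groups, libraries labelled BMDM also held microglia markers, up to levels within the range of the microglia libraries. The part of these markers was not tested.

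Macrophages were below monocytes, both from unirradiated tumours. Here 17 members fell and 0 rose, against 13.8% of all genes called, 7.22% higher and 6.59% lower, with a median log2 fold change of -0.820 over the members and 0.0377 over all genes. The comparison shares its monocytes with the one against blood and its macrophages with the one against microglia, so their calls are not independent. Slc16a3 had the largest fall of the abundant members: macrophages held 101, 34.2, 108, 72.4 and 91.3 CPM and 117, 163, 106, 104 and 24.7 CPM, monocytes 310.1, 495, 341 and 204 CPM and 571, 567, 403, 561 and 136 CPM (-2.02 ± 0.33, adjusted p = 0.00036). Library 5 of the large stage was the lowest large-stage library in both populations. Eno1, the enolase, did not overlap, at 84.5 to 139 CPM in macrophages and 170.1 to 296 CPM in monocytes (-0.98 ± 0.14, adjusted p = 0.00011). Pkm did not overlap either, with 405 to 890.4 against 1067 to 2059 CPM (-1.08 ± 0.16, adjusted p = 0.00022).

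Ero1l (-1.59 ± 0.28), Bnip3 (-1.23 ± 0.24), Hif1a (-1.21 ± 0.24) and Slc2a1 (-1.23 ± 0.22) fell as well. Ankrd37, an ankyrin repeat protein induced by hypoxia, ran from 0.624 to 10.9 CPM in macrophages and 18 to 38.6 CPM in monocytes, with no overlap. Hk2 and Ldha did not pass (-0.21 and -0.33), nor did Egln3 (-1.56, adjusted p = 0.053). The call of P4ha1 (-0.53) was lost without small-stage macrophage library 2 (adjusted p = 0.059), those of Pfkfb4 and Aldoa without any of 8 single libraries and that of Ak4 (-2.46) without any of 14, its fold becoming -1.82 without small-stage monocyte library 4. Outside the 33, Fam162a, Plin2 and Plaur fell among 7 of 32 further hypoxia genes, while 2 rose. The background over all genes was 7.22% higher and 6.59% lower. Of the pentose phosphate genes 3 of 8 fell; the citrate cycle had 1 of 20 each way and oxidative phosphorylation 1 of 24 lower. Dendritic cell markers, at 39.2 to 263 CPM in monocytes, were higher in macrophages in 6 of 6 cases, as were 6 of 12 mitosis genes and 5 of 7 microglia markers; their part was not tested.

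**Figure D3:**
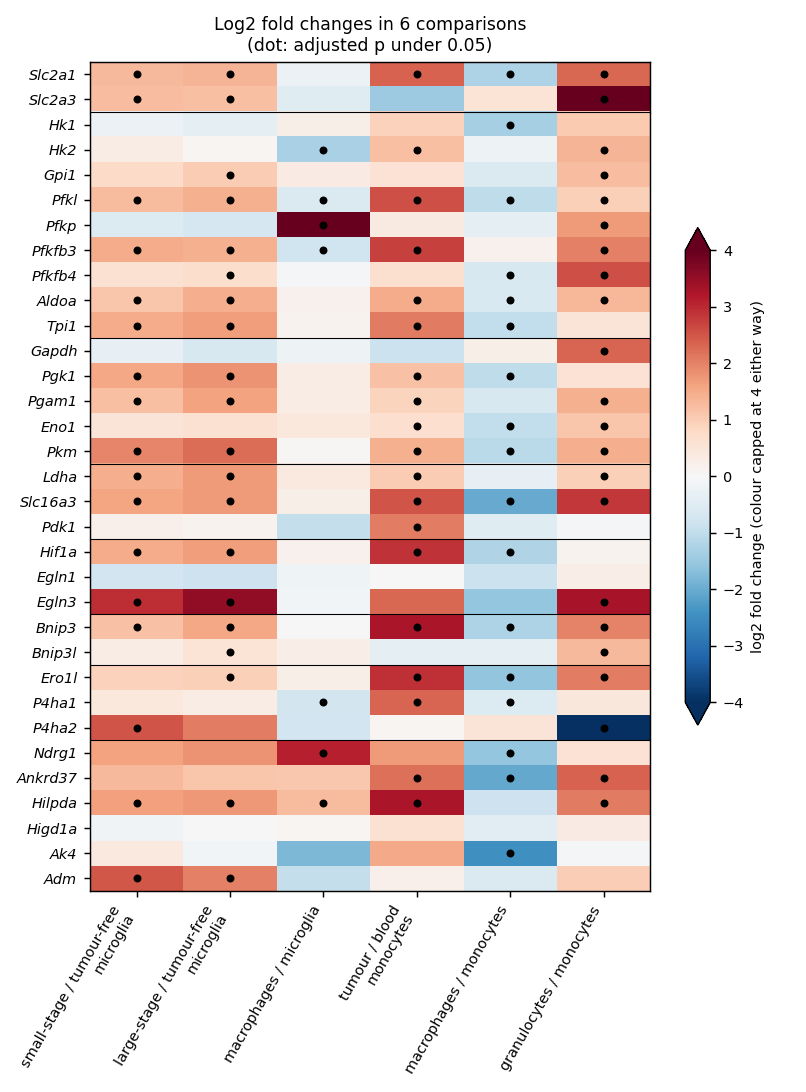
Log2 fold changes of the 33 genes (rows, grouped by role) in 6 comparisons (columns), red for higher in the first-named group and blue for lower, with a dot where edgeR's adjusted p was under 0.05. The columns hold 17, 20, 7, 19, 17 and 22 dots, and the columns for macrophages against microglia and against monocytes hold most of the blue.

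Granulocytes stood above monocytes, both from unirradiated tumours, over most of the programme. Of 33 members 21 rose and 1, P4ha2, fell, against 49.9% of all genes called, 23.0% higher and 26.9% lower. The median log2 fold change was 1.31 over the members and -0.126 over all genes. Both glucose transporters rose, with 7 of 9 genes of the preparatory phase, 4 of 5 of the pay-off phase and both mitophagy receptors. Hif1a itself and Egln1 did not pass.

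Slc2a3 separated the populations furthest. Monocytes held 7.56, 3.81, 5.26 and 15.7 CPM and 9.69, 4.92, 0.18, 19.9 and 28.9 CPM at the small and large stage, granulocytes 962, 806, 1040.1 and 948 CPM and 1097, 1102, 867, 698 and 1016 CPM. The log2 fold change was 6.79 ± 0.60 (adjusted p = 8.9e-09), with every granulocyte library far above every monocyte library. Slc2a1 was 2545, 1360.3, 601 and 1617 CPM and 1169, 1397, 1564, 734 and 1759 CPM in granulocytes, all above the monocyte range of 182 to 523 CPM (2.30 ± 0.29, adjusted p = 1.4e-06). Slc16a3 followed with 3432, 2007, 2743 and 1119 CPM and 3441, 1731, 3751, 1584 and 631 CPM against 136 to 571 CPM (2.84 ± 0.35). Egln3 reached 410.0, 352, 105 and 395 CPM and 329, 269, 301, 236 and 301 CPM, where monocytes held 2.07 to 62.1 CPM (3.29 ± 0.46, adjusted p = 4.8e-06). Hif1a was 825, 768, 579 and 535 CPM and 827, 996, 1179.6, 514 and 563 CPM against 398 to 1478 CPM, overlapping ranges with a difference of 0.14 ± 0.26 (adjusted p = 0.66).

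Pfkfb4, another maker of the phosphofructokinase activator, stood at 832 ± 258 against 167 ± 58.6 CPM (n = 9 each; 2.58 ± 0.26, adjusted p = 5.2e-08), and Pfkfb3 rose by 2.03 ± 0.29. Pkm was 5142, 2348, 2218 and 3251 CPM and 3500.4, 2503, 3950.3, 2443 and 2374 CPM in granulocytes, with no monocyte library above 2059 CPM (1.44 ± 0.21). Ldha rose by 0.95 ± 0.23 and Bnip3 by 1.98 ± 0.30, both with ranges that overlapped those of monocytes. The overlap was wide for Ldha, at 825 to 2560 CPM against 743 to 1690 CPM. Hk2 overlapped (1.6 to 303 and 38.9 to 128 CPM), and its call (adjusted p = 0.036) was lost without any of 10 single libraries (adjusted p up to 0.092). Pfkl lost its call without any of 15, and Hilpda (2.07) without small-stage granulocyte library 2, where the fold became 1.37 (adjusted p = 0.07). P4ha2 was 0 to 0.869 CPM in granulocytes and 0 to 8.08 CPM in monocytes, near the detection limit in both, and listed at 0 in all small-stage granulocytes, so its fitted fold depends on the prior count. Adm did not pass, at 5.93 ± 6.12 and 2.93 ± 3.99 CPM.

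A single granulocyte library stood apart. Small-stage library 1 had 7531 genes detected and held 1.6 CPM of Hk2, 2.66 of Ero1l, 5.32 of Hilpda, 1.06 of Ndrg1, 2.13 of P4ha1 and 0.532 of Pdk1, yet the highest Pkm of these 9 libraries (5142 CPM) and the highest Slc2a1 (2545 CPM). Without the doubtful libraries 25 members were called (background 59.8%), among them Hk1 (log2 fold change 1.23), Pgk1 (0.75) and P4ha1 (0.63), which did not pass with them. The size of the granulocyte folds depended on the scaling: with size factors of relative log expression 23 members were called (background 57.6%) and Slc2a1, Pkm, Slc16a3 and Egln3 stood at 3.15, 2.28, 3.63 and 4.03.

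The rise of the members in granulocytes stood beside lower levels of mitochondrial genes. The background over all genes was 23.0% higher and 26.9% lower. Oxidative phosphorylation genes encoded in the nucleus were lower in 16 of 24 cases and higher in 0 (median log2 fold change -1.12), and citrate cycle genes lower in 10 of 20 and higher in 1 (median -1.07). Fh1, fumarate hydratase, stood at 4.61 ± 2.84 against 70.8 ± 18.4 CPM (log2 fold change -3.75 ± 0.47, adjusted p = 1.3e-06). Mdh2, a malate dehydrogenase, was the gene that rose (731 ± 694 against 226 ± 30.5 CPM). Hk3, the hexokinase of myeloid cells, rose from 98.8 ± 27.3 to 496 ± 169 CPM among 4 of 28 other glycolytic genes higher, while Slc16a1 fell from 60.8 ± 17.9 to 4.76 ± 3.6 CPM among 5 lower. Of 32 further hypoxia genes 10 rose and 4 fell, and of the pentose phosphate pathway 3 of 8 rose and 1 fell.

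Related genes for the same step were used in different shares by the 4 populations. Shares are of summed CPM per kb within a pair, as mean ± SD over libraries. Pfkp made up 2.34% ± 1.26 (n = 5) of Pfkp and Pfkl in small-stage microglia, 38.8% ± 12.5 (n = 5) in macrophages, 23.7% ± 4.34 (n = 4) in tumour monocytes and 63% ± 7.6 (n = 4) in blood monocytes. The blood and tumour monocyte ranges did not overlap. Slc2a3 held 26.7% ± 4.97 (n = 5) of the glucose transporter pair in large-stage granulocytes and 1.69% ± 1.58 (n = 5) in monocytes. Hk2 held 89.3% ± 3.71 of Hk1 and Hk2 in small-stage microglia, 68.9% ± 9.94 in macrophages and 56.6% ± 12.5 in monocytes.

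The lactate side shifted in microglia. Ldha made up 22.9% ± 6.29 (n = 4) of Ldha and Ldhb without a tumour, 43.5% ± 7.72 (n = 5) at the small and 52.5% ± 10.5 (n = 5) at the large stage, and no tumour library was below the highest of these 4 tumour-free ones. In the titled tumour-free groups the share was 33.2% ± 3.32 at day 3 and 25.6% ± 6.05 at day 5 (n = 3 each), and the highest day 3 library (35.86%) lay above the lowest small-stage one (35.56%). In macrophages, monocytes and granulocytes of the large stage the share was 79.5% ± 12.9, 86.7% ± 6.14 and 97.9% ± 1.92. Slc16a3 reached 99.6% ± 0.266 of Slc16a3 and Slc16a1 in granulocytes and 43.5% ± 14.4 in microglia. Egln3 went from 7.63% ± 3.76 of Egln1 and Egln3 in tumour-free to 47.1% ± 5.8 in small-stage microglia and held 94.1% ± 4.05 in granulocytes. Bnip3 went from 9.03% ± 3.43 of Bnip3 and Bnip3l in blood to 52% ± 10.6 in tumour monocytes. Mapping to shared sequence, large for Bnip3, enters these shares. The blood libraries also held erythroid, NK and B cell markers, and the part of these in their Bnip3 and Pfkp shares was not tested.

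**Figure D4:**
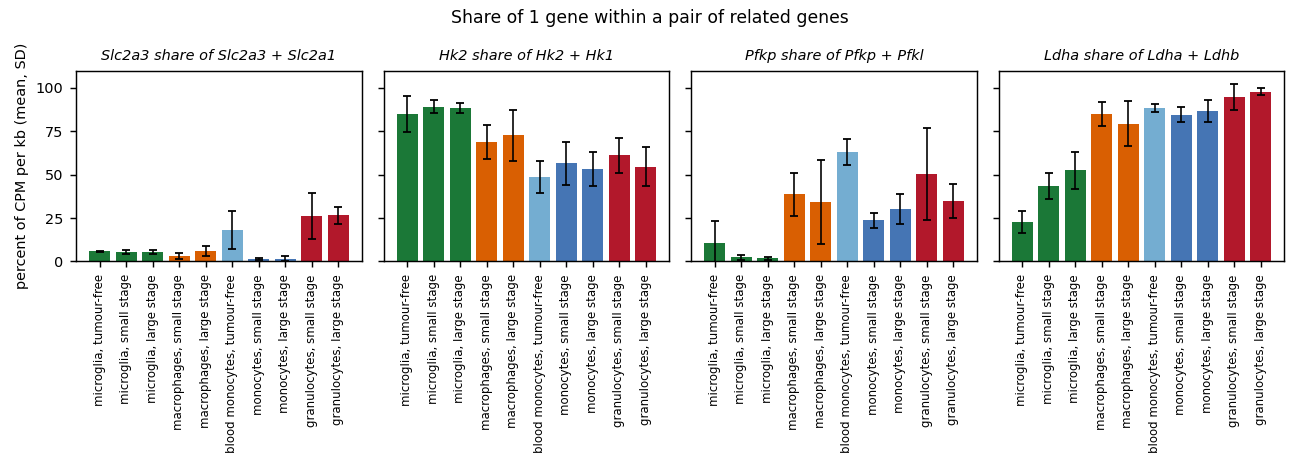
Share of the first gene within a pair of related genes, in percent of CPM per kb, as the mean and SD over the libraries of a group. The Slc2a3 share is highest in granulocytes (26.4% and 26.7%), the Pfkp share is lowest in tumour microglia (2.34% and 1.74%), and the Ldha share goes from 22.9% to 52.5% over the microglia groups.

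No member passed edgeR's test between tumour stages or after radiotherapy. Between the large and the small stage, edgeR called 0 of 33 in microglia, macrophages and monocytes and 0 of 32 in granulocytes, against backgrounds of 0%, 0%, 0% and 0.0141%. At unadjusted p under 0.05 there were 0, 0, 0 and 1 (backgrounds 12.4%, 6.02%, 3.90% and 8.80%), the 1 being Ankrd37 at 308, 77.5, 45.5 and 201 CPM at the small and 135, 52.5, 105, 56 and 67 CPM at the large stage. DESeq2 called 6 members lower at the large stage in granulocytes and edgeR with size factors of relative log expression 5 (backgrounds 4.88% and 11.6%), with Aldoa going from -0.59 to -1.85 in both. Whether the stage effect differed from that in microglia was tested as an interaction: 0 members were called in macrophages, monocytes and granulocytes (backgrounds 0%, at unadjusted p 4.86%, 4.67% and 7.18% with 0, 0 and 1 member). DESeq2 called 1, Aldoa at -2.89, in granulocytes (background 0.331%). Small-stage granulocyte library 1, a doubtful one, enters these granulocyte comparisons. Without the doubtful libraries edgeR's test called 0 of 14183 genes between the granulocyte stages and 0 of 15219 in the interaction. DESeq2 and the relative log expression scaling were not run without them.

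After irradiation, each population was set against its unirradiated tumours of both stages, which all 4 schedules share. In microglia 0 members were called after 5x2 Gy at day 3, 1x10 Gy at day 3, 5x2 Gy at day 5 and 5x2 Gy at day 10, against backgrounds of 0.0607%, 0.101%, 0.0354% and 0.00506%. At unadjusted p, 1, 2, 1 and 1 members stood out (backgrounds 1.81%, 8.11%, 2.73% and 4.89%). Pfkfb3 was among them at day 10, at 201, 226 and 187 CPM against 229 to 434 CPM in unirradiated tumours, and every irradiated library was below that range (-0.78 ± 0.23, adjusted p = 0.74); DESeq2 called this 1 (adjusted p = 0.029, background 0.294%). In macrophages edgeR called 0 members in the 4 schedules (backgrounds 0%, 0.00630%, 0% and 0%), with 3, 1, 1 and 7 at unadjusted p (backgrounds 5.86%, 9.34%, 7.09% and 6.29%). In monocytes it called 0 in each (background 0%), with 0, 1, 3 and 1 at unadjusted p (4.12%, 7.65%, 10.1% and 4.79%). In granulocytes it called 0 of 32 in each (background 0%), with 0, 0, 0 and 3 at unadjusted p (2.90%, 6.02%, 6.96% and 3.32%).

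Day 10 after 5x2 Gy gave the widest displacement of the members. In macrophages 27 of 33 fitted folds were positive with a median of 0.497, against 44.7% positive and a median of -0.0613 over all genes. The medians after the other schedules were 0.295 (5x2 Gy, day 3), 0.353 (1x10 Gy) and 0.231 (5x2 Gy, day 5). At day 5, 27 of 33 were positive, against 48.3% of all genes. At day 10 the mean log2 CPM over the members was 5.939, 6.923 and 5.917 by library. Unirradiated macrophages ran from 4.7 to 6.221, so only library 2 lay above them. Hk1, the constitutive hexokinase, had the lowest adjusted p there: 72.6, 113 and 70.7 CPM against 12.7 to 59.6 CPM in unirradiated tumours (1.25 ± 0.30, adjusted p = 0.43). Library 2 of day 10 stood high for the oxygen-responsive genes: Hif1a was 422, 1064 and 408 CPM, Egln3 15.7, 66.4 and 16.6 CPM and Ero1l 95.7, 336 and 105 CPM. Monocytes of the same number were also the highest of their group, with Hif1a at 846, 1413 and 1031 CPM and Egln3 at 40.5, 117 and 46.3 CPM. Granulocytes at day 10 had 3 of 32 positive folds and a median of -0.560, against 54% positive and a median of 0.0673 over all genes. Slc2a3 was 535, 529 and 663 CPM there against 698 to 1102 CPM, every irradiated library below the unirradiated range (-0.91 ± 0.36, unadjusted p = 0.017 in edgeR, adjusted p = 1).

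Monocytes at day 5 after 5x2 Gy listed Adm at 0 in all 4 libraries, against 0 to 11.3 CPM in the 9 unirradiated libraries. P4ha2 was at 0 in 3 of the 4, against 0 to 8.08 CPM. edgeR without a filter on low counts and DESeq2 each called these 2 genes (backgrounds 0.489% and 1.29%), whereas the filtered fit did not (adjusted p = 0.2 and 0.22). With values this near to 0 the depth limits the comparison.

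**Figure D5:**
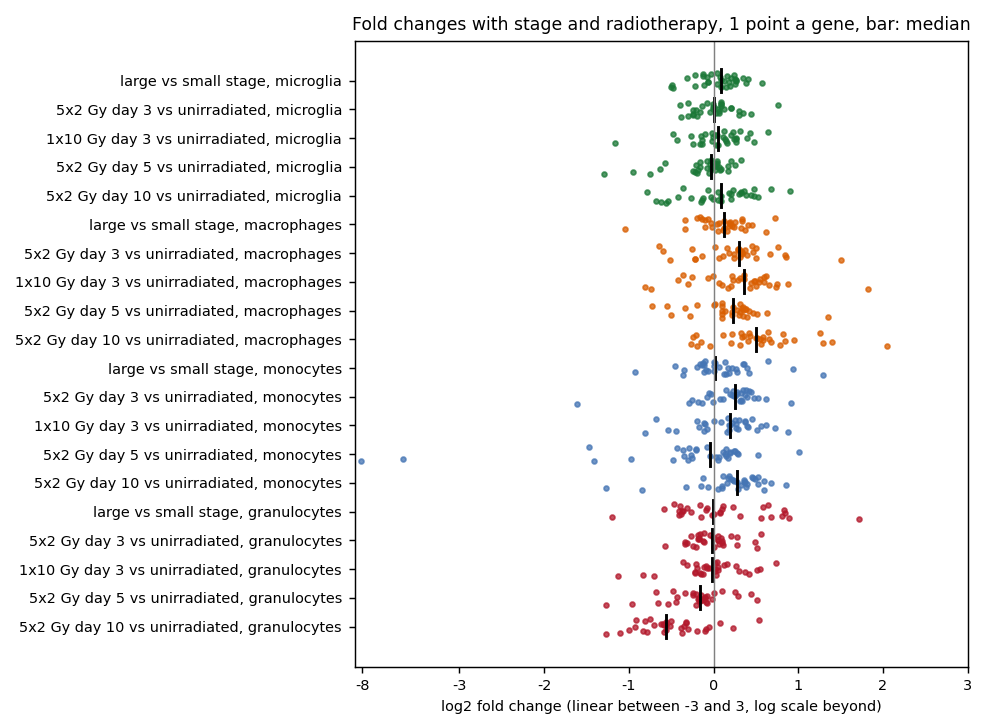
Log2 fold changes of the members with tumour stage and after each radiotherapy schedule, 1 point a gene and 1 row a comparison, with a bar at the median; the axis is linear between -3 and 3 and logarithmic beyond. Medians lie between 0.231 and 0.497 in the 4 macrophage schedules, between -0.048 and 0.272 in those of monocytes and at -0.560 in granulocytes at day 10, and the 2 points far to the left are Adm and P4ha2 in monocytes at day 5.

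Across the 28 group means, which share cell populations and controls, members differed in how closely they followed each other. Of 528 pairs of members 180 had a Pearson correlation over 0.8 and 56 one under 0. Measured against the mean of the other members, Ero1l (0.978), Pkm (0.971), Bnip3 (0.966), Pgam1 (0.961), Slc2a1 and Aldoa (0.96 each) were closest. P4ha2 ran the other way (-0.606), being highest in microglia after 1x10 Gy and listed at 0 in every granulocyte library of the small stage and after 1x10 Gy. Pdk1 (0.147), Hk2 (0.187), Higd1a (0.197), Adm (0.199), Ak4 (0.301) and P4ha1 (0.330) followed the rest least. Pdk1, Hk2 and P4ha1 had their highest group mean in microglia and their lowest in blood monocytes. These are descriptions over group means, with no test.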

How the data were processed

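Sorted myeloid cells were profiled by RNA sequencing in 108 libraries. The deposited table holds whole-number counts per gene, raw as the authors deposited them. Per the submitters' processing notes, the tools were TopHat2 2.0.14, DESeq2 1.18.1, HTSeq and FastQC and the build was GRCm38; the strand setting of the counting is not given in the sources used here, so reads of overlapping antisense genes cannot be told apart. No counts lie on mitochondrial genes. Of 49585 gene IDs 49326 matched GENCODE M21, and 233 rows had no symbol.

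Groups were compared with edgeR 4.0.16 (R 4.3.3): genes were kept with filterByExpr (minimum count 10, total 15), scaled by the trimmed mean of M values, fitted with 1 mean per group, tested by the quasi-likelihood F test and adjusted by Benjamini and Hochberg over all genes tested, with a threshold of 0.05, in 31 comparisons. Log2 levels used a prior count of 0.5. The procedure was tested on simulated data for small-stage against tumour-free microglia, granulocytes against monocytes, and tumour against blood monocytes. The other comparisons were not simulated. Depth ranged from 985423 to 18642747 counts, which limits members with few counts such as Adm and P4ha2. A library was called doubtful when its total was below 3000000, when it detected more than 30000 genes, or when more than 1% of abundant genes were at 0. Within groups no pair of libraries held identical values.

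Alternatives were scaling by relative log expression, no filter, DESeq2 1.42.0, the replicate number as a block, other references, and leaving out libraries. Any member could be named; values per library are given for the largest changes and for Slc2a1, Hk2, Pkm, Ldha, Hif1a, Egln3, Bnip3 and Adm, and other lists are named by their smallest adjusted p. Members and lists were chosen with earlier results of these data known.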

Additional observations from a re-analysis of the deposited data

Results flagged for a closer look

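Within groups of 4 or 5 libraries, 12 values stood apart from the others of their group by Dixon's test, among 162 sets of values tested, where chance gives about 1 in 20. The mean log2 CPM over the 33 genes was 7.28 in large-stage granulocyte library 4, with the nearest other library at 7.889. Slc2a1 was 134 CPM in large-stage microglia library 2, below the nearest at 183.7 CPM, and 207 CPM in microglia library 4 at day 5 after 5x2 Gy, above the nearest at 160.1 CPM. Egln3 was 36.5 CPM in macrophage library 3 at day 5, with the nearest at 15.77 CPM.

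The other 8 values are high values of Adm, a gene near the detection limit in these cells. It was 11.3 CPM in small-stage monocyte library 2, 8.28 CPM in large-stage monocyte library 5, 6.36 CPM in large-stage macrophage library 3 and 20.1 CPM in large-stage granulocyte library 2. After 5x2 Gy it was 7.65 CPM in microglia library 4 and 24.6 CPM in granulocyte library 2 at day 3, and 6.24 CPM in macrophage library 3 and 14.5 CPM in granulocyte library 3 at day 5.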

How the results depend on the processing

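No member value changed sign among the 103 calls. Under the settings named in the processing summary, without those added after seeing the data, 7175 values kept their side of the threshold, 217 lost the call and 60 gained it; under the added ones 70 kept it, 21 lost and 8 gained it. Without the doubtful libraries 8 members were called in small-stage and 13 in large-stage microglia, 3 in tumour against blood monocytes and 0 in the titled day 3 group, with fewer libraries in each; without the pair of shallow blood libraries 11 were called. DESeq2 called 11 between macrophages and microglia, 2 and 3 in the titled day 3 and day 5 groups, 6 between granulocyte stages, 1 in the interaction of stage and granulocytes, 1 in microglia at day 10 and 2 in monocytes at day 5, where edgeR with no filter also called 2. Scaling by relative log expression called 5 between granulocyte stages and 0 in the titled day 3 group, whose share of higher calls among all genes went from 43.1% to 20.5%, and that of day 5 from 59.0% to 43.5%. The cause was not tested.

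Leaving out 1 library at a time, the counts ran from 12 to 18 and from 16 to 19 in small-stage and large-stage microglia, 6 to 9 for macrophages against microglia, 14 to 25 for tumour against blood monocytes, 13 to 19 for macrophages and 19 to 25 for granulocytes against monocytes. They ran from 0 to 4 in the titled day 3 and 0 to 2 in the titled day 5 group.

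Replicate numbers were not taken to pair the libraries. Same-numbered libraries correlated between -0.23 and 0.361 (macrophages and microglia) and between -0.554 and 0.0416 (tumour-free and tumour microglia), and between -0.395 and 0.683 for irradiated against unirradiated groups, where 1 of 32 pairs of groups (granulocytes at day 5 and small-stage granulocytes, 0.113 to 0.295) was over 0.1 throughout. The mean over the members was also set against its group mean in each library of the tumour groups. These deviations correlated at 0.51 between same-numbered macrophages and monocytes (17 of 23 on the same side). Between monocytes and granulocytes the correlation was 0.452 (17 of 23), and other pairs of populations gave 0.113 to 0.369. The main fits treat such libraries as independent. With the replicate block 16, 18, 8, 19, 21 and 18 members were called in the 6 main comparisons, and 0 in the titled day 3 group. Low depth limits Adm, P4ha2 and Ak4 most, with mean counts of 28.5, 44.1 and 49.6 a library.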

Other observations

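Genes of the same pathways outside the 33 gave further contrasts. Car9, a carbonic anhydrase of hypoxic cells, stood at 0.937 ± 0.488 CPM in tumour-free and 6.82 ± 1.46 CPM in large-stage microglia (log2 fold change 2.69 ± 0.56, edgeR adjusted p = 0.00098). Eno2, the neuronal enolase, went from 2.73 ± 2.01 to 18.2 ± 8.09 CPM (adjusted p = 0.003). Bpgm, which makes the oxygen-affinity effector of red cells, was 106 ± 76.1 CPM in blood and 9.51 ± 5.29 CPM in tumour monocytes (log2 fold change -3.90 ± 0.68, adjusted p = 0.0014), beside the erythroid markers of those blood libraries. Bhlhe40, a repressor that hypoxia induces, was 339.9 ± 196 CPM in macrophages and 18.4 ± 9.08 CPM in microglia, a log2 difference of 4.18 ± 0.41 (adjusted p = 2.2e-07). Cited2, which competes with HIF-1α for its coactivator, was 346 ± 204 CPM in granulocytes and 87.6 ± 42.1 CPM in monocytes (log2 fold change 2.30 ± 0.41, adjusted p = 0.0001).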
